A study of Mus musculus with 4 samples.

Results

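The 62 genes described here were lower in activated mouse CD4+ T cells that lacked either of a pair of transcription factors, STAT3 or STAT5. They were chosen by their measured values: each gene's level was at least 2-fold lower on the STAT3-deficient array than on its control array, and at least 2-fold lower on the STAT5-deficient array than on its own control array. The array measured 18194 genes through probe sets naming no other gene, and the 12440 whose highest value exceeded the median of all values were compared. Both limits were passed by 68. Symbols of several cytokine, chemokine, transporter and other families were left out by the choice of members. That removed 6 genes, Il10, Il24, Klrd1, Serpinb1a, Slc15a2 and Slc39a8, and left 62. Since the choice used both differences, the decreases below are a description and carry no test.

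STAT3 and STAT5 are latent cytoplasmic proteins that enter the nucleus once a cytokine receptor has had them phosphorylated, and both bind short palindromic DNA elements that begin with TTC and end with GAA. In helper T cells IL-6, IL-21 and IL-23 act mainly through STAT3, which promotes the IL-17-producing Th17 fate, whereas IL-2 acts through STAT5, which promotes regulatory T cells and restrains Th17 differentiation. Because the proteins are known for opposing each other at Th17 genes, genes that were lower without either one form a separate class.

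All cells came from C57BL/6J mice that carried OT2, a transgenic T cell receptor for an ovalbumin peptide. Naive CD44- CD62L+ cells were sorted from lymph nodes and spleen and stimulated for 72 h through CD3 and CD28 while IL-4 was blocked, in medium holding 20 ng/ml IL-6 and 2 ng/ml TGF-β. STAT3-deficient cells were CD4-Cre stat3 fl/fl OT2, and the STAT3 wild type was stat3 fl/fl OT2 without Cre; in both, IL-2 was neutralised (10 µg/ml antibody). STAT5-deficient cells were CD4-Cre stat5 fl/fl OT2, and the STAT5 wild type was stat5 fl/fl OT2 without Cre; both received 100 IU/ml IL-2. Cre is driven from Cd4 regulatory sequence and so acts in T cells from the CD4-expressing thymic stage on. The genotype label of both deficient samples also carries the words wild type, so the groups follow the sample titles, and how many mice gave each sample is not stated. The pairs therefore differ in IL-2 as well as in the deleted gene, and what belongs to the deletion and what to the IL-2 condition cannot be told apart between the pairs. Each group had 1 array, so no difference has a replicate check, a standard error or a p-value, and the number of arrays limits every value. In bulk RNA, fewer cells expressing a gene and less RNA per cell cannot be told apart.

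Levels are deposited values read as log2, so a difference of -1 is a 2-fold decrease, and a level up to 6.20, the median of all values, is treated as background. The targeted genes were low where the titles say so: Stat3 at 9.93 in STAT3-deficient against 12.87 in STAT3 wild-type cells, Stat5a at 5.91 in STAT5-deficient against 10.92 in STAT5 wild-type cells and Stat5b at 6.09 against 11.33 in the same cells. The 11 measured CD4 T cell identity genes had 0 members past 2-fold in either pair, with a summed level of 15.76 in STAT3-deficient, 15.89 in STAT3 wild-type, 15.84 in STAT5-deficient and 15.79 in STAT5 wild-type cells. Lists for 7 other cell types had 0 members past 2-fold in either pair among those above background, and no NK or erythroid marker was above background; their part in the results was not tested. The B cell list, with 2 of 6 measured genes above background, summed to 8.16 and 8.24 in the STAT3-deficient and STAT3 wild-type cells and to 8.48 and 8.13 in the STAT5-deficient and STAT5 wild-type cells. The median gene differed by -0.20 in the STAT3 pair and by 0.06 in the STAT5 pair. Centring the arrays on their medians adds 0.24 to every STAT3 difference and takes 0.06 from every STAT5 difference.

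As a background for the members, 7.23% of the 12440 genes were at least 2-fold lower without STAT3 and 1.74% without STAT5, while 0.547% were lower in both and the 62 members make up 0.498%; both contrasts set the membership, so nothing is read from these shares. At least 2-fold higher were 2.85% of genes without STAT3 and 1.86% without STAT5. With arrays centred, 4.67% were lower and 4.22% higher without STAT3, and 2.06% were lower and 1.59% higher without STAT5. The median member differed by -1.92 (3.79-fold lower) without STAT3 and by -1.48 (2.79-fold lower) without STAT5. The decrease was larger without STAT3 for 45 members and larger without STAT5 for 17 as deposited, but for 32 and 30 with arrays centred, so the balance depends on the scaling. For 23 members both log2 differences lay within 0.25 of each other. Past 4-fold there were 30 members without STAT3, 13 without STAT5 and 9 in both pairs, and past 8-fold 10 and 2. The member level had a median of 6.60 in STAT3-deficient, 8.73 in STAT3 wild-type, 7.76 in STAT5-deficient and 9.20 in STAT5 wild-type cells, whereas the medians of all genes compared were 8.44, 8.62, 8.77 and 8.72 on the same arrays. On all 4 arrays 34 members lay above background. Another 13 lay at background in both deficient cultures. Where a deficient level is at background, the difference as measured has no reliable size. For part of these members a fold against the background level of 6.20 is given as a lower bound. For the rest, such as Inha, Jcad, Tle2, Myof, Cmklr1, Tmeff2 and Spred3, no bound is given. With values below background set to that level, a choice made after seeing the data, 48 of the 62 stayed past 2-fold in both pairs. At that setting 5 were past 4-fold in both, and the medians over all 62 were -1.60 and -1.27. The decrease was then larger without STAT3 for 40 members and larger without STAT5 for 22. The 14 that did not stay were Brs3, Cmklr1, Enah, Fndc3c1, Gja5, Gm11346, Igkv8-30, Lhx6, Naip2, Ppp1r27, Sgip1, Spred3, Tmeff2 and Trim9.

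**Figure D1:**
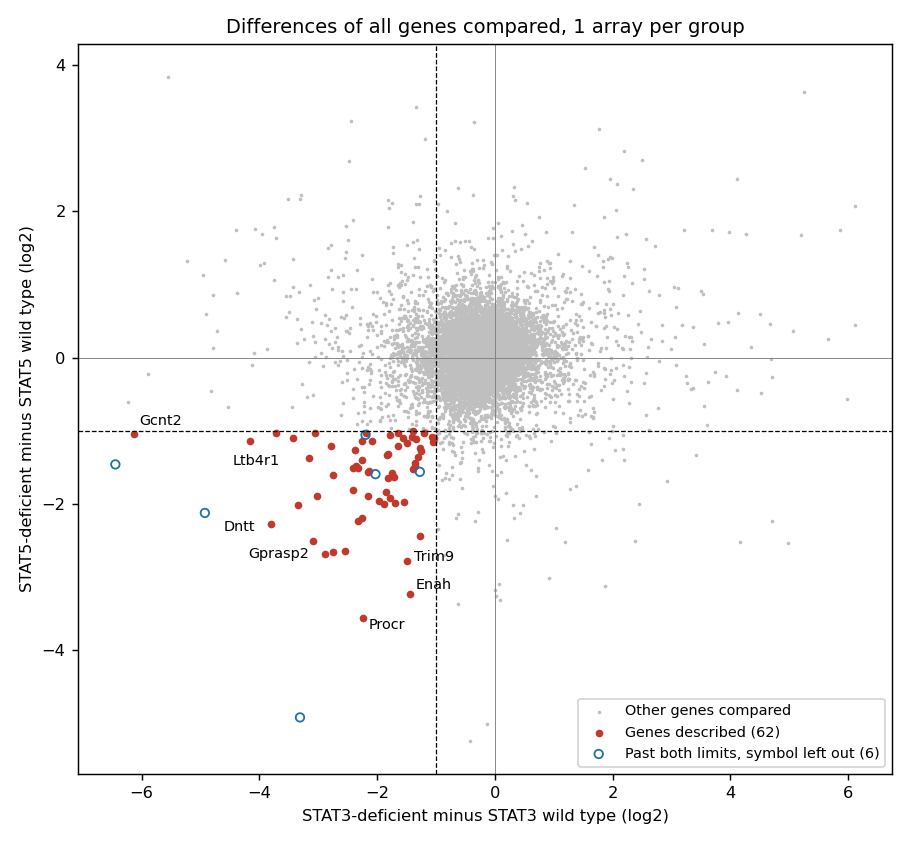
Log2 differences of all genes compared, STAT3-deficient minus STAT3 wild type across and STAT5-deficient minus STAT5 wild type upwards, 1 point per gene and 1 array per group. The 62 genes described (red) lie past -1 on both axes, with Gcnt2 at -6.13 and -1.04 and Procr at -2.24 and -3.56, and the 6 open circles are genes past both limits whose symbols were left out.

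**Figure D2:**
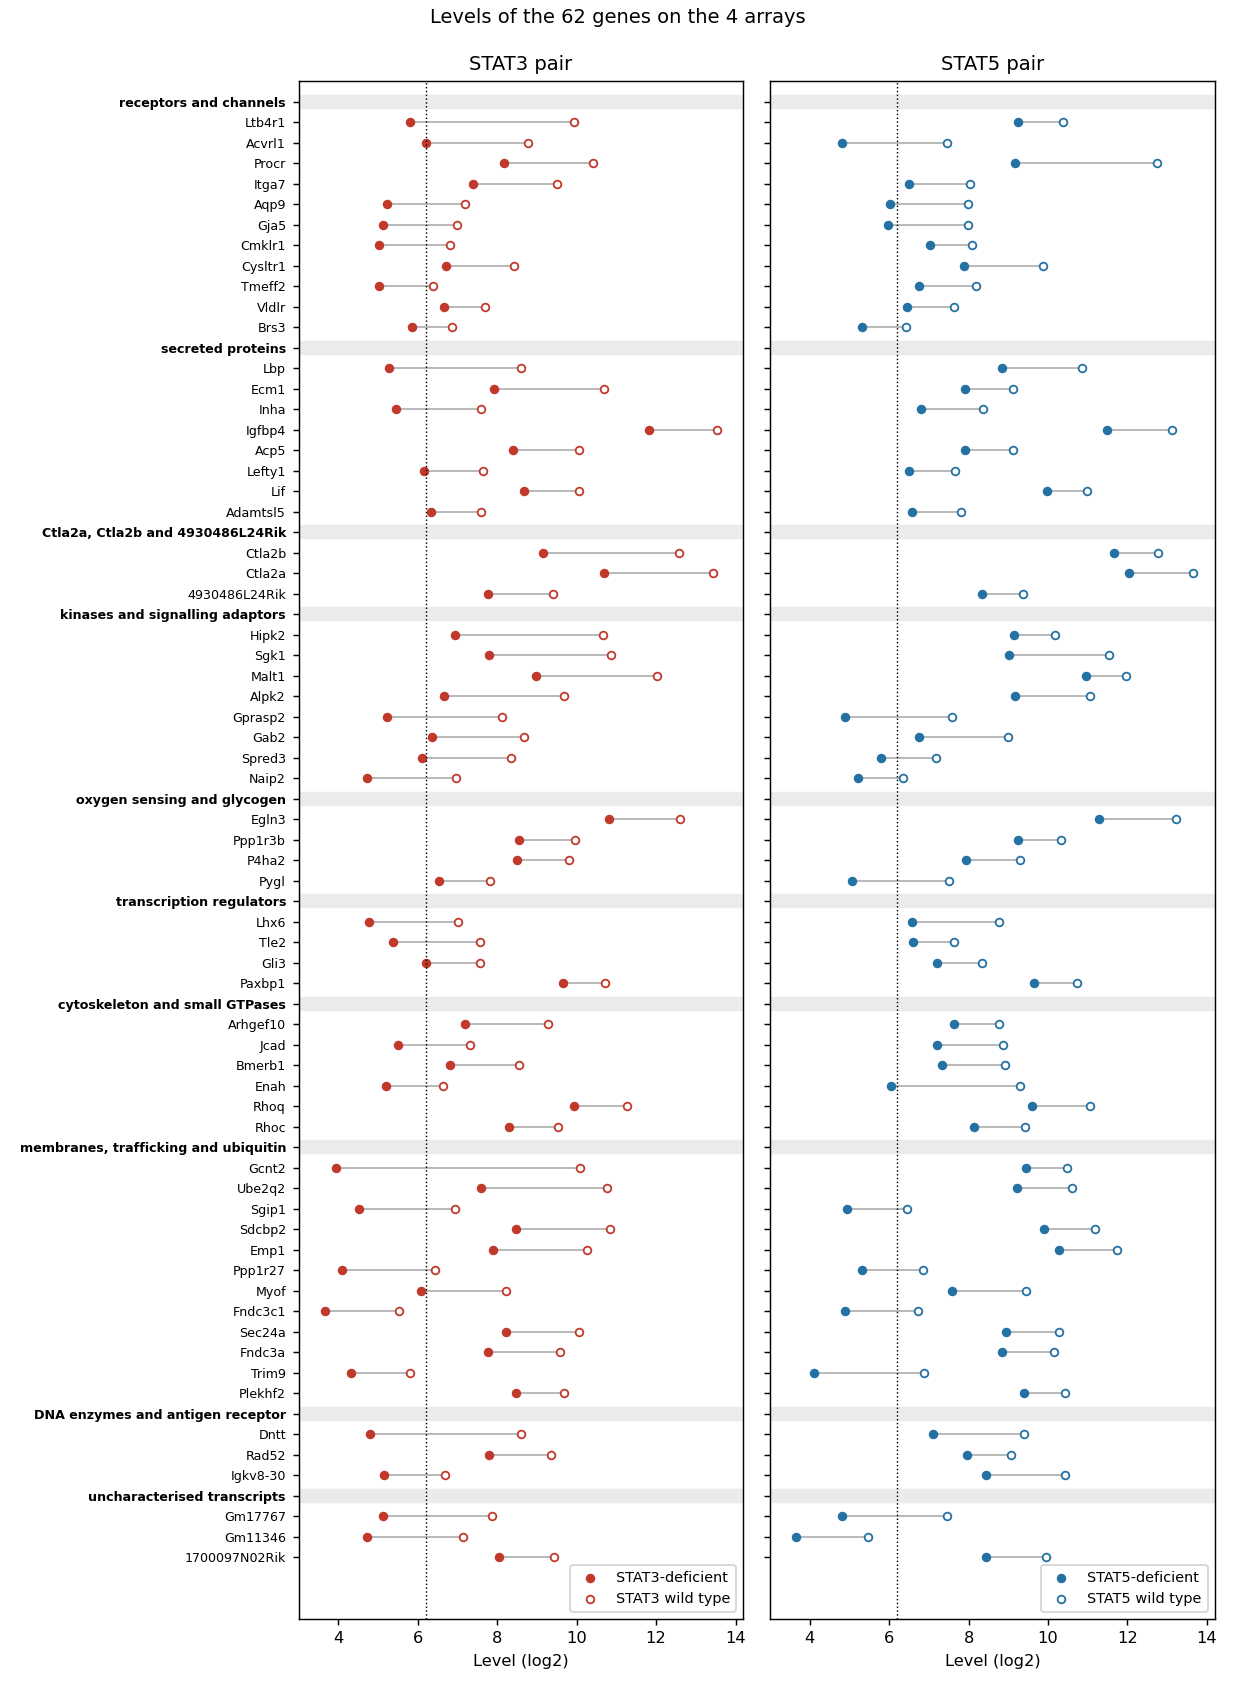
Levels (log2) of the 62 genes grouped by role, with the STAT3 pair on the left and the STAT5 pair on the right; filled points are deficient and open points wild-type arrays, and the dotted line is the median of all values, 6.20. Igfbp4 runs from 11.48 to 13.53 over the 4 arrays, whereas Gprasp2 and Gm17767 lie left of the dotted line in both deficient cultures.

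Receptors of lipid mediators and of TGF-β family ligands were among the surface proteins that were lower in both pairs. Procr encodes the endothelial protein C receptor, which binds the anticoagulant protease activated protein C. Its level was 8.18 in STAT3-deficient against 10.41 in STAT3 wild-type cells, and 9.17 in STAT5-deficient against 12.73 in STAT5 wild-type cells. The highest of the 4 levels was that of the STAT5 wild type, and the decrease without STAT5 (-3.56, 11.8-fold) exceeded that without STAT3 (-2.24, 4.71-fold). Acvrl1, the type I receptor ALK1 for BMP ligands, measured 6.22 without STAT3 against 8.77 in the STAT3 wild type, and 4.80 without STAT5 against 7.45 in the STAT5 wild type. Without STAT3 it differed by -2.55 (5.86-fold). The STAT5-deficient level was at background, at least 2.38-fold below the wild type. Its other probe set differed by -1.28 and -2.35, with both deficient levels at background.

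Cysltr1, a receptor of cysteinyl leukotrienes, stood at 6.72 in STAT3-deficient against 8.41 in STAT3 wild-type cells, and 7.89 in STAT5-deficient against 9.88 in STAT5 wild-type cells. Both deficient cultures lay below both wild types, and its other probe set differed by -2.33 without STAT3 and -2.27 without STAT5. Ltb4r1, the leukotriene B4 receptor BLT1 that guides effector T cells into inflamed tissue, measured 5.79 without STAT3 against 9.94 in the STAT3 wild type, and 9.24 without STAT5 against 10.38 in the STAT5 wild type. It lay at background without STAT3, at least 13.4-fold below the wild type, and above background without STAT5 (-1.15, 2.21-fold). Cmklr1, the receptor of the chemoattractant chemerin, was at 5.03 in STAT3-deficient against 6.81 in STAT3 wild-type cells, and 7.03 in STAT5-deficient against 8.09 in STAT5 wild-type cells. Brs3, an orphan receptor related to those of bombesin, had levels of 5.84 (STAT3-deficient) against 6.87 (STAT3 wild type) and 5.33 (STAT5-deficient) against 6.43 (STAT5 wild type), near background throughout, and its STAT3 difference of -1.03 became -0.78 with arrays centred.

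Itga7, the laminin-binding integrin α7, measured 7.38 without STAT3 against 9.51 in the STAT3 wild type, and 6.49 without STAT5 against 8.04 in the STAT5 wild type. Its level without STAT3 was below its control by 2.13 on the log2 scale, and without STAT5 by 1.54. Aqp9, a channel for water and glycerol, was at 5.23 in STAT3-deficient against 7.20 in STAT3 wild-type cells, and 6.03 in STAT5-deficient against 7.99 in STAT5 wild-type cells, with both deficient cultures at background. Its other probe set differed by -1.17 and -0.99. Gja5, the gap junction protein connexin 40, had levels of 5.11 (STAT3-deficient) against 6.99 (STAT3 wild type) and 5.98 (STAT5-deficient) against 7.99 (STAT5 wild type). It too was above background in the wild types alone. Vldlr, a lipoprotein and reelin receptor, had levels of 6.65 (STAT3-deficient) against 7.69 (STAT3 wild type) and 6.46 (STAT5-deficient) against 7.62 (STAT5 wild type). With arrays centred its STAT3 difference was -0.80, and with its 6 probe sets averaged it was -0.58, both short of 2-fold. Its other probe set above background differed by -0.79 and -1.67. Tmeff2, a transmembrane protein with follistatin-like domains, was at 5.03 in STAT3-deficient against 6.39 in STAT3 wild-type cells, and 6.76 in STAT5-deficient against 8.20 in STAT5 wild-type cells.

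Secreted proteins formed a second group, in which all 8 members had the larger decrease without STAT3 as deposited. With arrays centred 6 of 8 did, where Igfbp4 and Adamtsl5 turned. With values below background set to background 7 of 8 did, where Inha turned. Lif, a cytokine of the IL-6 family, measured 8.68 without STAT3 against 10.07 in the STAT3 wild type, and 9.98 without STAT5 against 10.99 in the STAT5 wild type. Its STAT5 difference of -1.01 was the one nearest the limit, and its other probe set differed by -1.28 and -0.87. Inha, the α subunit of inhibin, was at 5.44 in STAT3-deficient against 7.59 in STAT3 wild-type cells, and 6.80 in STAT5-deficient against 8.37 in STAT5 wild-type cells. Lefty1, an antagonist of Nodal in the TGF-β superfamily, had levels of 6.16 (STAT3-deficient) against 7.65 (STAT3 wild type) and 6.49 (STAT5-deficient) against 7.66 (STAT5 wild type), which placed the STAT3-deficient value at background.

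Igfbp4, which binds insulin-like growth factors, stood at 11.83 in STAT3-deficient against 13.53 in STAT3 wild-type cells, and 11.48 in STAT5-deficient against 13.12 in STAT5 wild-type cells. All 5 of its other probe sets were at least 2-fold lower in both pairs, between -1.04 and -2.06 without STAT3 and between -1.64 and -1.99 without STAT5. Lbp, the lipopolysaccharide-binding protein, measured 5.27 without STAT3 against 8.61 in the STAT3 wild type, and 8.85 without STAT5 against 10.86 in the STAT5 wild type. It was at background without STAT3, at least 5.31-fold lower, but not without STAT5 (-2.01). Its other probe set differed by less, -0.79 and -0.37.

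Ecm1, a matrix glycoprotein, had levels of 7.91 (STAT3-deficient) against 10.69 (STAT3 wild type) and 7.91 (STAT5-deficient) against 9.12 (STAT5 wild type). The deficient cultures had the same level, while the STAT3 wild type was the highest of the 4 and the differences were -2.78 and -1.21. Acp5, the tartrate-resistant acid phosphatase, had levels of 8.41 (STAT3-deficient) against 10.06 (STAT3 wild type) and 7.90 (STAT5-deficient) against 9.11 (STAT5 wild type). Adamtsl5, a secreted relative of ADAMTS proteases, was at 6.33 in STAT3-deficient against 7.59 in STAT3 wild-type cells, and 6.57 in STAT5-deficient against 7.81 in STAT5 wild-type cells, and averaged over its probe sets it differed by -0.92 and -0.95, short of 2-fold.

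Ctla2a and Ctla2b encode small proteins homologous to the propeptide of cathepsins and are known from activated mouse T cells. Ctla2a measured 10.68 without STAT3 against 13.43 in the STAT3 wild type, and 12.03 without STAT5 against 13.64 in the STAT5 wild type. Ctla2b was at 9.16 in STAT3-deficient against 12.58 in STAT3 wild-type cells, and 11.67 in STAT5-deficient against 12.77 in STAT5 wild-type cells. All 8 levels were well above background, and both genes differed more without STAT3 (-2.74 and -3.43) than without STAT5 (-1.61 and -1.10). Their sequences are alike enough that 1 probe set names both genes. That probe set, left out of the gene values, differed by -2.79 and -1.36, so signal of the 2 genes may be shared between their probe sets.

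In the RefSeq order of protein-coding genes 4930486L24Rik is the direct neighbour of Ctla2b, and only Tpbpb lies between Ctla2b and Ctla2a. 4930486L24Rik had levels of 7.76 (STAT3-deficient) against 9.41 (STAT3 wild type) and 8.34 (STAT5-deficient) against 9.38 (STAT5 wild type), a decrease of -1.65 without STAT3 and of -1.03 without STAT5. Tpbpb, the intervening gene, differed by 0.01 and 0.57 at levels of 6.64 in STAT3-deficient against 6.63 in STAT3 wild-type and 6.67 in STAT5-deficient against 6.11 in STAT5 wild-type cells. The promoters of these neighbours are shown because the genes lie side by side and were all lower in both pairs. Each is the RefSeq window of GRCm38.p6 from 250 bases before to 50 after a gene start, 5′ to 3′ on the gene's strand. Capitals mark TTCNNNGAA, the core of the STAT element, and TGANTCA, the core of the AP-1 element, searched on both strands. The windows are chr13:60936576-60936875 for 1 of the 2 Ctla2a starts, chr13:60897398-60897697 for Ctla2b and chr13:60864367-60864666 for 4930486L24Rik, all on the minus strand.
Ctla2a: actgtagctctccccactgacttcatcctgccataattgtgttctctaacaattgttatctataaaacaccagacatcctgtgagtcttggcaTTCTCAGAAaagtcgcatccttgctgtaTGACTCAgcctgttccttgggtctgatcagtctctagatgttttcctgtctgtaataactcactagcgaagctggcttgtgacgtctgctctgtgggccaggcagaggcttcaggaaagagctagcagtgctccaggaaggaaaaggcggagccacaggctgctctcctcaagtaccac
Ctla2b: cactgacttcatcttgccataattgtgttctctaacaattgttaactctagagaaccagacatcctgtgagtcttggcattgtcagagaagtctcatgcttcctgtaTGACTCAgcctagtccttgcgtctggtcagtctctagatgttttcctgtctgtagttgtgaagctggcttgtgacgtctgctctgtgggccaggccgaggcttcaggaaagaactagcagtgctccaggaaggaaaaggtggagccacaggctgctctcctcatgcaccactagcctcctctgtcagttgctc
4930486L24Rik: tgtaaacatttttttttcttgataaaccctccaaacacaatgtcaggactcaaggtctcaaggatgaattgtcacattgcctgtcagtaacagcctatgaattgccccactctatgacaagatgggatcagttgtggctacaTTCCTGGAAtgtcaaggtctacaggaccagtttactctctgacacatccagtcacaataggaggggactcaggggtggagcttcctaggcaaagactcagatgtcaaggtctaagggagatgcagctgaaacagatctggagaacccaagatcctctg
The Ctla2a window held TTCTCAGAA starting 157 bases upstream of the start and TGACTCA starting 129 bases upstream. Ctla2b had TGACTCA at 143 bases upstream and no TTCNNNGAA in this window. The 4930486L24Rik window held TTCCTGGAA at 108 bases upstream.

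Kinases, adaptors and other signalling proteins had the larger decrease without STAT3 in 8 of 8 members as deposited. With arrays centred 6 of 8 did, where Gprasp2 and Gab2 turned. With values below background set to background 8 of 8 did. Sgk1, the serum- and glucocorticoid-regulated kinase known to stabilise Th17 cells downstream of IL-23, measured 7.78 without STAT3 against 10.87 in the STAT3 wild type, and 9.03 without STAT5 against 11.54 in the STAT5 wild type. Its decreases of -3.09 (8.50-fold) and -2.51 (5.70-fold) left it above background on all 4 arrays. Of the 9 members 4-fold lower in both pairs, Sgk1, Procr and Gab2 were the ones above background on all 4 arrays. Gab2, a scaffold that couples cytokine receptors to phosphatidylinositol 3-kinase, was at 6.36 in STAT3-deficient against 8.68 in STAT3 wild-type cells, and 6.76 in STAT5-deficient against 8.99 in STAT5 wild-type cells. Its other 2 probe sets did not show decreases of that size: 1 differed by -1.84 and -0.88 and the other by -0.28 and 0.003.

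Malt1, the paracaspase that links the T cell receptor to NF-κB, had levels of 8.97 (STAT3-deficient) against 12.02 (STAT3 wild type) and 10.94 (STAT5-deficient) against 11.97 (STAT5 wild type). The decrease without STAT3 (-3.06, 8.31-fold) was seen by its other 2 probe sets too, at -2.32 and -2.38. Without STAT5 the value was -1.03, and those probe sets gave -0.74 and -0.41, short of 2-fold. Hipk2, a nuclear kinase active in apoptosis and stress responses, measured 6.94 without STAT3 against 10.66 in the STAT3 wild type, and 9.14 without STAT5 against 10.18 in the STAT5 wild type. In the STAT3 pair its 6 other probe sets above background lay between -1.32 and -2.71, and in the STAT5 pair between -0.23 and -0.81, against -1.03 for the one used.

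Alpk2, an alpha-kinase, was at 6.66 in STAT3-deficient against 9.69 in STAT3 wild-type cells, and 9.17 in STAT5-deficient against 11.06 in STAT5 wild-type cells. It is the direct neighbour of Malt1 in gene order, and its STAT5 decrease of -1.89 was the larger of the 2 genes. Spred3, an inhibitor of Ras and MAP kinase signalling, had levels of 6.10 (STAT3-deficient) against 8.35 (STAT3 wild type) and 5.79 (STAT5-deficient) against 7.19 (STAT5 wild type). Gprasp2, which sorts G protein-coupled receptors after endocytosis, was at 5.23 in STAT3-deficient against 8.11 in STAT3 wild-type cells, and 4.89 in STAT5-deficient against 7.58 in STAT5 wild-type cells. Both deficient cultures lay at background, so its decreases are at least 3.77-fold and at least 2.61-fold. Naip2, an inflammasome receptor for bacterial proteins, had levels of 4.71 (STAT3-deficient) against 6.97 (STAT3 wild type) and 5.22 (STAT5-deficient) against 6.36 (STAT5 wild type), close to background on both wild types.

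Genes of oxygen sensing and glycogen use had a median difference of -1.36 without STAT3 and -1.64 without STAT5. Egln3, the prolyl hydroxylase that marks hypoxia-inducible factors for destruction and is itself induced by them, measured 10.82 without STAT3 against 12.60 in the STAT3 wild type, and 11.30 without STAT5 against 13.22 in the STAT5 wild type. Its other probe set differed by -2.12 and -2.05, against -1.78 and -1.92 for the one used. P4ha2, a collagen prolyl hydroxylase subunit, was at 8.50 in STAT3-deficient against 9.81 in STAT3 wild-type cells, and 7.93 in STAT5-deficient against 9.29 in STAT5 wild-type cells. The STAT5-deficient level was the lowest of the 4 and the STAT3 wild-type level the highest. Pygl, the liver glycogen phosphorylase, had levels of 6.55 (STAT3-deficient) against 7.82 (STAT3 wild type) and 5.06 (STAT5-deficient) against 7.50 (STAT5 wild type). The STAT5-deficient level was at background, so that decrease is at least 2.46-fold, against 2.42-fold (-1.27) without STAT3. Ppp1r3b, which targets protein phosphatase 1 to glycogen, measured 8.55 without STAT3 against 9.96 in the STAT3 wild type, and 9.25 without STAT5 against 10.34 in the STAT5 wild type.

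A list of glycolysis and hypoxia genes had 26 members above background. Without STAT3, 3 were at least 2-fold lower and 0 higher (2 lower with arrays centred), and without STAT5, 6 were lower and 0 higher, against 7.23% and 1.74% of all genes lower. Over the list the median was -0.52 without STAT3, against -0.20 for all genes, and -0.34 without STAT5, against 0.06 for all genes. With arrays centred the list medians were -0.28 and -0.40. Egln3 and P4ha2 were the 2 members past 2-fold in both pairs. In the STAT5 pair the glucose transporter gene Slc2a3 (-1.65), the aldolase gene Aldoc (-1.60), P4ha1 (-1.18) and Bnip3, a mitophagy receptor (-1.16), were lower too, at -0.60, -0.73, -0.78 and -0.78 in the STAT3 pair. Slc16a3, a lactate exporter, differed by -1.05 without STAT3 and by 0.18 without STAT5. The lactate dehydrogenase gene Ldha differed by -0.20 and 0.10. Hif1a itself differed by -1.59 without STAT3 and by -0.06 without STAT5.

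**Figure D3:**
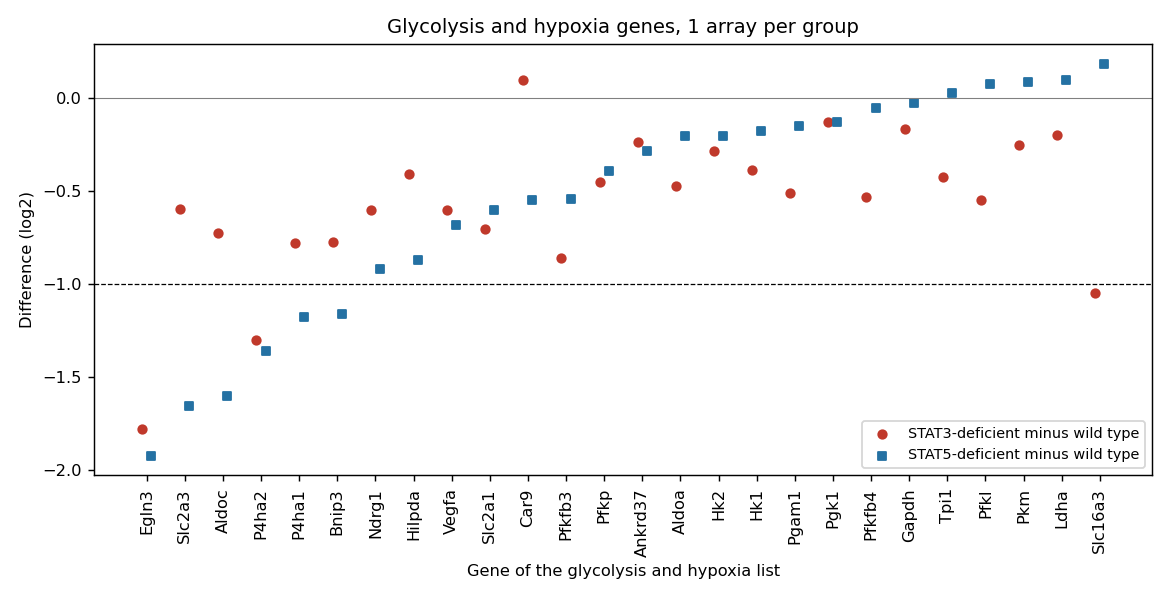
Log2 differences of the 26 glycolysis and hypoxia genes above background, ordered by the STAT5 difference; circles are STAT3-deficient minus wild type, squares STAT5-deficient minus wild type, with 1 array per group and the dashed line at -1. Egln3 and P4ha2 are past the dashed line in both pairs, while Slc2a3, Aldoc, P4ha1 and Bnip3 are past it without STAT5 alone and Slc16a3 without STAT3 alone.

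Transcription regulators numbered 4. Lhx6, a LIM homeobox factor, measured 4.76 without STAT3 against 7.02 in the STAT3 wild type, and 6.57 without STAT5 against 8.76 in the STAT5 wild type. Only the STAT3-deficient culture was at background, at least 1.77-fold below the wild type. The decrease without STAT5 was -2.19 (4.56-fold). Gli3, a transcription factor of Hedgehog signalling, was at 6.22 in STAT3-deficient against 7.56 in STAT3 wild-type cells, and 7.21 in STAT5-deficient against 8.33 in STAT5 wild-type cells. Another of its probe sets differed by -2.55 and -1.98, more than the -1.34 and -1.12 of the one used. Tle2, a Groucho corepressor, had levels of 5.37 (STAT3-deficient) against 7.55 (STAT3 wild type) and 6.60 (STAT5-deficient) against 7.64 (STAT5 wild type). Paxbp1, a partner of PAX proteins, was at 9.64 in STAT3-deficient against 10.71 in STAT3 wild-type cells, and 9.65 in STAT5-deficient against 10.73 in STAT5 wild-type cells, and its STAT3 difference of -1.06 became -0.82 with arrays centred. Its other probe set above background differed by -0.78 and -0.84.

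Cytoskeletal regulators and small GTPases had the larger decrease without STAT3 in 3 of 6 members as deposited. With arrays centred 1 of 6 did, where Bmerb1 and Jcad turned. With values below background set to background 2 of 6 did, where Jcad turned. Enah, an actin regulator of the Ena/VASP family, measured 5.19 without STAT3 against 6.63 in the STAT3 wild type, and 6.05 without STAT5 against 9.29 in the STAT5 wild type. It was highest in the STAT5 wild type and near background in the STAT3 wild type. Both deficient levels lay at background, so the decreases are at least 8.50-fold without STAT5 and at least 1.35-fold without STAT3. Its 3 other probe sets above background gave -0.83 to -2.30 without STAT5 but 0.11, -0.23 and -0.93 without STAT3. Rhoq, the GTPase TC10 of vesicle traffic, was at 9.92 in STAT3-deficient against 11.27 in STAT3 wild-type cells, and 9.59 in STAT5-deficient against 11.07 in STAT5 wild-type cells. Rhoc, a GTPase of cell motility, had levels of 8.29 (STAT3-deficient) against 9.54 (STAT3 wild type) and 8.15 (STAT5-deficient) against 9.42 (STAT5 wild type), with -1.66 and -0.65 for its other probe set.

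Arhgef10, a guanine nucleotide exchange factor, measured 7.19 without STAT3 against 9.28 in the STAT3 wild type, and 7.62 without STAT5 against 8.76 in the STAT5 wild type, and another of its probe sets differed by -2.16 and -0.93. Bmerb1, a protein with a bivalent Mical/EHBP Rab-binding domain, was at 6.80 in STAT3-deficient against 8.54 in STAT3 wild-type cells, and 7.34 in STAT5-deficient against 8.91 in STAT5 wild-type cells. Jcad, known as a junctional protein of endothelial cells, had levels of 5.51 (STAT3-deficient) against 7.31 (STAT3 wild type) and 7.21 (STAT5-deficient) against 8.86 (STAT5 wild type). In these 3 genes each deficient culture was below its own control, and the STAT3-deficient level was the lowest of the 4. A list of 27 adhesion and cytoskeleton genes above background had 3 lower and 6 higher without STAT3, and 1 lower and 4 higher without STAT5. Of all genes compared, 7.23% were lower and 2.85% higher without STAT3, and 1.74% were lower and 1.86% higher without STAT5. Enah was the only gene of the list past 2-fold down in both pairs, while Gsn, an actin-severing protein at -1.75 and -0.97, joined it with arrays centred.

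Membrane, trafficking and ubiquitin genes made up 12 members, 11 of which had the larger decrease without STAT3 as deposited. With arrays centred 8 did, where Myof, Fndc3c1 and Plekhf2 turned. With values below background set to background 9 did, where Fndc3c1 and Ppp1r27 turned. Gcnt2, the enzyme that adds branches to poly-N-acetyllactosamine chains, had the widest gap between the pairs. It measured 3.94 without STAT3 against 10.07 in the STAT3 wild type, and 9.44 without STAT5 against 10.48 in the STAT5 wild type. The STAT3-deficient level lay at background, at least 14.7-fold below the wild type. Without STAT5 it was -1.04, and of its 5 other probe sets above background 1 passed 2-fold there (-1.22) and 4 did not (-0.32 to -0.85). Ube2q2, a ubiquitin-conjugating enzyme, was at 7.60 in STAT3-deficient against 10.75 in STAT3 wild-type cells, and 9.23 in STAT5-deficient against 10.61 in STAT5 wild-type cells. Sdcbp2, the PDZ protein syntenin-2, had levels of 8.47 (STAT3-deficient) against 10.84 (STAT3 wild type) and 9.90 (STAT5-deficient) against 11.17 (STAT5 wild type).

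Emp1, an epithelial membrane protein of the PMP22 family, measured 7.89 without STAT3 against 10.26 in the STAT3 wild type, and 10.27 without STAT5 against 11.75 in the STAT5 wild type. Both deficient levels lay below their controls and above background, at -2.37 (5.15-fold) and -1.48 (2.78-fold). Its other probe set above background differed by -0.38 and -0.22. Its promoter is shown because it held 2 matches of each core, more than any other window of a member. The window is chr6:135362681-135362980 on the plus strand.
Emp1: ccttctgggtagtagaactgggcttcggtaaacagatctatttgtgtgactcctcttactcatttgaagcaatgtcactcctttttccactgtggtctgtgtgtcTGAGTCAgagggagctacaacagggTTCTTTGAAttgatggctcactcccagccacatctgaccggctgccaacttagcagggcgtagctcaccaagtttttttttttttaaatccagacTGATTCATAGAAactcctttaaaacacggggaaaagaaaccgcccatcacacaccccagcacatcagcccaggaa
The matches of TTCNNNGAA were TTCTTTGAA at 120 and TTCATAGAA at 22 bases upstream of the start. Those of TGANTCA were TGAGTCA at 145 and TGATTCA at 25 bases upstream, and the one at 25 overlaps TTCATAGAA.

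Myof, a ferlin of membrane repair, was at 6.08 in STAT3-deficient against 8.22 in STAT3 wild-type cells, and 7.57 in STAT5-deficient against 9.46 in STAT5 wild-type cells. Sec24a, a cargo subunit of the COPII coat, had levels of 8.23 (STAT3-deficient) against 10.06 (STAT3 wild type) and 8.95 (STAT5-deficient) against 10.29 (STAT5 wild type), and its other probe set passed 2-fold in both pairs as well, at -1.50 and -1.07. Plekhf2, an endosomal protein, measured 8.48 without STAT3 against 9.68 in the STAT3 wild type, and 9.39 without STAT5 against 10.42 in the STAT5 wild type, with -2.22 and -1.03 for its other probe set. Its STAT3 difference of -1.20 became -0.96 with arrays centred. Fndc3a, a fibronectin type III protein, was at 7.77 in STAT3-deficient against 9.59 in STAT3 wild-type cells, and 8.84 in STAT5-deficient against 10.15 in STAT5 wild-type cells. Its other probe sets above background differed by -0.24 and 0.23 and by -0.86 and -1.03, and averaged over its probe sets it differed by -0.97 and -0.70, short of 2-fold. Its relative Fndc3c1 had levels of 3.67 (STAT3-deficient) against 5.52 (STAT3 wild type) and 4.89 (STAT5-deficient) against 6.73 (STAT5 wild type), above background in the STAT5 wild type alone. Fndc3c1 is the direct neighbour of Cysltr1 in gene order.

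Sgip1, an endocytic adaptor, had levels of 4.52 (STAT3-deficient) against 6.93 (STAT3 wild type) and 4.94 (STAT5-deficient) against 6.44 (STAT5 wild type). Trim9, a ubiquitin ligase known from neurons, was at 4.31 in STAT3-deficient against 5.81 in STAT3 wild-type cells, and 4.11 in STAT5-deficient against 6.88 in STAT5 wild-type cells, also above background in the STAT5 wild type alone. It is the direct neighbour of Pygl in gene order. Trim9 and Pygl had the larger decrease without STAT5 as deposited, but their STAT5-deficient levels lay at background. Trim9 was at least 1.61-fold lower without STAT5. Ppp1r27, a regulator of protein phosphatase 1, measured 4.10 without STAT3 against 6.43 in the STAT3 wild type, and 5.33 without STAT5 against 6.84 in the STAT5 wild type. Sgip1, Trim9 and Ppp1r27 lay at background in both deficient cultures.

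Dntt, terminal deoxynucleotidyl transferase, adds untemplated nucleotides during antigen receptor rearrangement and is known from lymphocyte precursors. It was at 4.81 in STAT3-deficient against 8.61 in STAT3 wild-type cells, and 7.11 in STAT5-deficient against 9.38 in STAT5 wild-type cells. The STAT3-deficient level was at background, at least 5.31-fold below the wild type, and the STAT5-deficient level was not (-2.27). A second probe set gave -1.97 and -1.51, but it and the one used can match several transcripts. The remaining Dntt probe set, at background on all 4 arrays, differed by -1.12 and -0.885. Rad52, a DNA repair protein, had levels of 7.78 (STAT3-deficient) against 9.34 (STAT3 wild type) and 7.96 (STAT5-deficient) against 9.07 (STAT5 wild type), with -1.28 and -1.09 for its other probe set.

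Igkv8-30, an immunoglobulin κ light chain variable segment, measured 5.15 without STAT3 against 6.69 in the STAT3 wild type, and 8.44 without STAT5 against 10.42 in the STAT5 wild type. The 3 probe sets that name Igkc together with several variable segments, Igkv8-30 among them, moved alike, at -1.29 to -2.33 without STAT3 and -1.57 to -1.95 without STAT5. Their levels ran from 5.71 to 7.33 in STAT3-deficient, 8.04 to 8.80 in STAT3 wild-type, 9.31 to 10.25 in STAT5-deficient and 11.26 to 11.92 in STAT5 wild-type cells. The probe set used for Igk, a κ light chain entry of its own, differed by less, -0.97 and -0.68. It stood at 5.34 in STAT3-deficient against 6.30 in STAT3 wild-type and 6.09 in STAT5-deficient against 6.77 in STAT5 wild-type cells. The B cell markers Ms4a1 and Cd79a and the immunoglobulin joining chain gene Jchain were at background on all 4 arrays, with Jchain at 4.71 in STAT3-deficient against 4.15 in STAT3 wild-type and 4.31 in STAT5-deficient against 4.45 in STAT5 wild-type cells. Other B lineage genes were above background. Ighm, the μ heavy chain gene, stood at 10.50 in STAT3-deficient against 10.01 in STAT3 wild-type and 9.38 in STAT5-deficient against 9.86 in STAT5 wild-type cells. Igha, the α heavy chain gene, differed by -1.32 and -0.06, and Mzb1, a marginal zone B cell gene, by -0.61 and -0.34. Cd79b and Pax5 passed background on part of the arrays. Sdc1, a plasma cell marker, differed by -3.92 without STAT3 and by 1.30 without STAT5. Igk, Ighm, Igha, Mzb1, Jchain and Sdc1 were chosen for this comparison after their values were seen, and the part of B lineage cells was not tested. The Igkv8-30 probe set and those that name Igkc can match several transcripts, so the segment itself is uncertain.

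The uncharacterised transcripts were Gm17767, Gm11346 and 1700097N02Rik, which RefSeq lists as 2 long non-coding RNAs and, for Gm11346, a transcribed pseudogene. Gm17767 was at 5.11 in STAT3-deficient against 7.86 in STAT3 wild-type cells, and 4.80 in STAT5-deficient against 7.47 in STAT5 wild-type cells. It lay at background in both deficient cultures, so its decreases are at least 3.16-fold and at least 2.41-fold. Gm11346 had levels of 4.71 (STAT3-deficient) against 7.13 (STAT3 wild type) and 3.65 (STAT5-deficient) against 5.46 (STAT5 wild type), above background in the STAT3 wild type alone. 1700097N02Rik measured 8.05 without STAT3 against 9.43 in the STAT3 wild type, and 8.43 without STAT5 against 9.95 in the STAT5 wild type, and its other probe sets above background differed by -1.70 and -1.53 and by -0.77 and -0.75.

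Probe sets that the choice of members did not use gave a second reading of the same RNA for part of the members. For 30 members the array has 1 probe set, and the other 32 have 70 further ones, of which 43, belonging to 24 members, lay above background on at least 1 array. Of those 43, 40 were below 0 in both pairs and 15 were at least 2-fold lower in both, while 17 passed in the STAT3 pair alone, 4 in the STAT5 pair alone and 7 in neither. Their median difference was -1.83 without STAT3 and -0.88 without STAT5. The members with another probe set past 2-fold in both pairs were Acvrl1, Cysltr1, Dntt, Egln3, Gcnt2, Gli3, Igfbp4, Plekhf2, Rad52, Sec24a and 1700097N02Rik. Probe sets of a gene share the labelled RNA and can read different transcripts, so they are not replicates. With all probe sets of a gene averaged, 18 members no longer passed both limits and the background filter: Adamtsl5, Arhgef10, Cmklr1, Emp1, Enah, Fndc3a, Gcnt2, Hipk2, Jcad, Lif, Malt1, Myof, Paxbp1, Rhoc, Sgip1, Tmeff2, Trim9 and Vldlr.

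**Figure D4:**
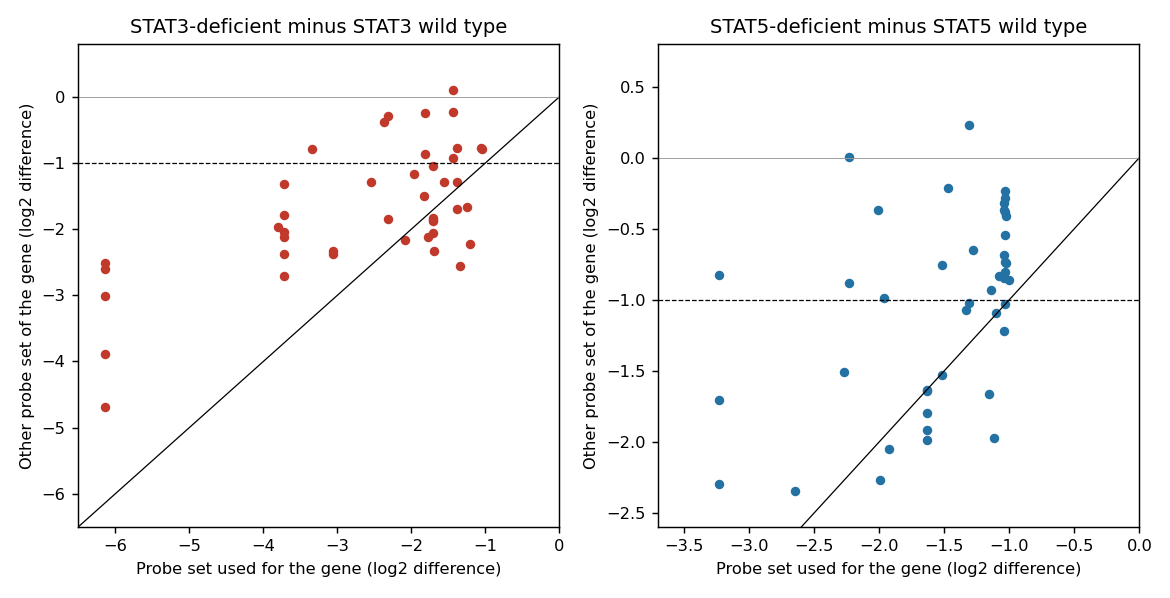
Log2 difference of each further probe set above background (43 probe sets of 24 genes, upwards) against that of the probe set used for its gene (across), for the STAT3 pair on the left and the STAT5 pair on the right; the solid line marks equality and the dashed line -1. In the STAT3 pair 32 of the 43 lie at or below the dashed line and in the STAT5 pair 19, and the column of points near -1.03 in the STAT5 pair belongs mainly to Gcnt2, Hipk2 and Malt1.

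Of 16 Th17 genes above background, 14 were lower and 0 higher without STAT3, and 1 was lower and 5 higher without STAT5; Ltb4r1 was the single one lower in both. Over all genes compared 7.23% were lower and 2.85% higher without STAT3, and 1.74% were lower and 1.86% higher without STAT5. The list medians were -2.56 and 0.63. An IL-6 and STAT3 list had 29 genes above background, of which 16 were lower without STAT3 and 2 without STAT5, and Il10, whose symbol was left out, was the 1 lower in both, at 4.47 in STAT3-deficient against 9.39 in STAT3 wild-type and 8.26 in STAT5-deficient against 10.39 in STAT5 wild-type cells. An IL-2 and STAT5 list had 32, of which 6 were lower and 7 higher without STAT3, 5 were lower and 2 higher without STAT5, and 0 were lower in both. Foxp3, the regulator of regulatory T cells on that list, differed by -3.37 without STAT5 but lay at background in both cultures of the STAT3 pair.

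Among 12 genes of an IL-10 and coinhibitory list above background, 7 were lower without STAT3 and 3 without STAT5, and Procr and Il10 were lower in both. No gene was lower in both pairs among 15 regulatory T cell genes, 23 early genes of T cell receptor signalling, 15 genes of the TGF-β response and 13 of MAP kinase feedback. The list of secreted and membrane proteases had 5 of 19 lower without STAT3 and 3 without STAT5, with Procr the 1 in both, while 0.547% of all genes compared were lower in both, 7.23% without STAT3 and 1.74% without STAT5. Its members C1s1 and F3, a complement protease and the coagulation initiator tissue factor, differed by -3.18 and -3.31 without STAT5, and both lay at background in the STAT3 pair. These lists were written with earlier results of the same arrays known, and their counts are descriptions.

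RefSeq promoter windows were found for 46 of the 62 members, 63 windows in all, since some genes have several starts whose windows can overlap. TTCNNNGAA stood in 8 of the 63 (12.7%), against 8.30% of all 32851 windows and 6.75% of those of the genes compared. The form with 4 instead of 3 free bases between TTC and GAA stood in 3 (4.76%), against 6.95% of all windows and 5.40% of those of the genes compared. TGANTCA stood in 11 windows of 10 genes (17.5%), against 7.81% of all windows and 5.25% of those of the genes compared. These 10 genes were Aqp9, Ctla2a, Ctla2b, Ecm1, Emp1, Lhx6, Lif, Procr, Sdcbp2 and Trim9. ACGTG, the core of the hypoxia element, stood in 11 windows (17.5%), against 19.6% of all and 24.9% of those of the genes compared. TATAAA stood in 8 (12.7%), against 13.6% of all and 7.52% of those of the genes compared. A match in these 300 bases is a description of letters, not a binding site.

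Procr is shown as the member with the largest decrease without STAT5, with its 1 match of TGANTCA in capitals. The window is chr2:155750967-155751266 on the plus strand, and the match TGACTCA begins 154 bases upstream of the start.
Procr: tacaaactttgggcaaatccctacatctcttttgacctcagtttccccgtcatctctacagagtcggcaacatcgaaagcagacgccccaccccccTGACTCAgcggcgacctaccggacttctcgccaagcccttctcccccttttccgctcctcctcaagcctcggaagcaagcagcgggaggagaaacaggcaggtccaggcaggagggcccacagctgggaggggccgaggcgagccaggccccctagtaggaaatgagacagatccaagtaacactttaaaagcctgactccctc
The window held no TTCNNNGAA.

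Just inside the limit, by the weaker of the decreases, were Lif (-1.01), Brs3 (-1.03), Malt1 (-1.03), Plekhf2 (-1.03) and 4930486L24Rik (-1.03). Just outside it were Me2, an NAD-dependent malic enzyme (-1.19 and -0.99), Zc3h6 (-0.99 and -1.14), Mtmr7 (-1.18 and -0.99), Ets1, a transcription factor of T cells (-0.99 and -1.04), and Ypel5 (-1.45 and -0.98). Ets1 measured 11.34 in STAT3-deficient against 12.33 in STAT3 wild-type and 11.38 in STAT5-deficient against 12.42 in STAT5 wild-type cells, a high level on every array. Genes on either side of the limit thus differ by less than 0.1 in the weaker decrease.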

How the data were processed

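RNA of the 4 samples was read on Affymetrix mouse expression arrays with 45101 probe sets. The authors deposited 1 value per probe set, made with Affymetrix Power Tools per the submitters' processing notes; the sources used here do not give its version or summary method. The deposited values run from 2.48 to 15.09 and were read as log2 values, and another base would change every fold.

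The platform annotation names 1 gene for 34958 probe sets; the rest gave no gene value. Each gene took the probe set with the highest mean over the arrays, and genes whose highest value passed 6.20 were kept (68.4%). With 1 array per group no test was possible, and 2-fold was used as the limit. Promoters are from RefSeq (GRCm38.p6). All members are named; for each list its counts are given. The members and lists were chosen with earlier results of these data known. The code of the selection was run on simulated data with planted decreases, which checks the code and not the members. Python 3.11.15, pandas 2.3.3 and statsmodels 0.14.6 were used.

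Other settings were averaged probe sets, single-transcript probe sets, other filters (none, or percentile 75), centring by median or by loess (span 0.4), limits of 1.5-fold and 3-fold and, added after seeing the data, values below background set to background.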

Additional observations from a re-analysis of the deposited data

Results flagged for a closer look

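Among all pathway list genes above background, 10 were past 2-fold in opposite directions in the 2 pairs. With 1 array per group the difference between the pairs was not tested. The lists were written with earlier results of these arrays known. The share of all genes moving in opposite directions is not given here, so nothing is read from the count. Of the 10, 5 were higher without STAT3 and lower without STAT5. Dusp5, a MAP kinase phosphatase, differed by 2.17 without STAT3 and by -1.25 without STAT5. Id1, an inhibitor of E proteins, differed by 1.28 and -1.80, Izumo1r, a marker of regulatory T cells, by 1.04 and -2.33, and Lta, the lymphotoxin α gene, by 1.19 and -2.52. Socs2, of the SOCS family of cytokine feedback inhibitors, was at 1.86 without STAT3 and -3.12 without STAT5.

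The other 5 were lower without STAT3 and higher without STAT5. Tmem176a and Tmem176b, membrane proteins of Th17 cells, differed by -4.59 and 1.33 and by -3.98 and 1.26. The IL-1 receptor gene Il1r1 differed by -4.08 and 1.75, and the chemokine receptor gene Cxcr6 by -3.75 and 1.79. Batf, an AP-1 family factor, differed by -1.52 and 1.001. With arrays centred Batf fell short of 2-fold without STAT5, while Cebpb, at 0.83 and -1.02 as deposited, passed in both pairs. Which genes are in this set thus depends on the scaling.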

How the results depend on the processing

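The 62 members became 50 with probe sets averaged (44 of the 62 among them), 47 without probe sets that can match several transcripts (45), 71 with no filter (62), 44 with a filter at percentile 75 (44), 60 with arrays centred (58) and 63 after loess centring (59). Without probe sets that can match several transcripts, 10 members had no value left: Acp5, Ctla2a, Igfbp4, Igkv8-30, Itga7, Lhx6, Naip2, Procr, Rhoq and Tle2. Members that kept a value but no longer passed both limits and the background filter were 1700097N02Rik, Dntt, Gab2, Myof, Rhoc, Trim9 and Vldlr. A limit of 1.5-fold gave 242 genes lower in both, 2389 without STAT3 and 644 without STAT5, and 3-fold gave 20, 343 and 70. Genes lower without STAT3 numbered 900 as deposited and 577 with arrays centred. The filter at percentile 75 left 551 without STAT3 and 128 without STAT5, from fewer genes tested. The members' median STAT3 difference was -1.68 with arrays centred or after loess centring, and their median STAT5 difference -1.21 with probe sets averaged. With values below background set to background, chosen after seeing the data, 48 members remained, and the medians over all 62 were -1.60 and -1.27. Without probe sets that can match several transcripts Gab2 took another probe set, and its STAT5 difference turned from -2.23 to 0.0029; the cause was not tested. No paired analysis was possible because each group has 1 array. Signal over background is known only through the level of 6.20, and 28 members lay at background on at least 1 array.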

Other observations

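Some probe sets without a gene of their own passed both limits. Of 3148 that name no gene and passed background, 6 were at least 2-fold lower in both pairs. Of 616 that name several genes, 7 were, against 0.547% of all genes compared. The 7 included the probe set naming Ctla2a with Ctla2b and those naming Igkc with Igkv8-30, which are described above and are not further cases. They also included probe sets naming Gmfg with its pseudogene (-2.10 without STAT3 and -1.11 without STAT5) and Rbm3 with its pseudogene (-1.14 and -1.06). Rbm3 encodes a cold-inducible RNA-binding protein, and its probe set stood at 7.78 in STAT3-deficient against 8.92 in STAT3 wild-type and 6.36 in STAT5-deficient against 7.42 in STAT5 wild-type cells.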
